A study of Mus musculus with 2 samples.

Results

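The unfolded protein response genes described here were the 9 genes Atf4, Ddit3, Xbp1, Atf6, Ern1, Ppp1r15a, Trib3, Cebpb and Tmbim6, taken as every probe set that the platform annotation names for them. They made up 18 of the 22690 probe sets on the array and 9 of its 12393 named genes. All were measured in islets of Langerhans from mice 2 days after birth, on 1 Affymetrix mouse 430A array for wild-type mice and 1 for PERK knockout mice. Islets of both genotypes were isolated with collagenase P. The wild-type label gives strains and gender as mixed. The sources used here do not give the strain or sex of the knockout mice, the exons removed, the cells in which PERK was lost or any pooling of pups. With 1 array per genotype there was no spread between replicates, so no difference below was tested and no p-value is given. Precision is limited throughout by there being 2 arrays.

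The unfolded protein response is the set of signals by which a cell answers unfolded protein in the endoplasmic reticulum (ER). It starts at membrane sensors of the ER: PERK (gene Eif2ak3), IRE1 (Ern1) and ATF6 (Atf6). PERK phosphorylates the initiation factor eIF2 alpha, which slows translation in general and favours translation of the transcription factor ATF4. IRE1 removes a short intron from Xbp1 mRNA, and ATF6 is cut in the Golgi apparatus to release its transcription factor part. Because these steps act on translation, splicing and protein cleavage, a transcript level does not measure the activity of the encoded factor. Pancreatic islets and acinar tissue both secrete large amounts of protein and depend on this response. Ern1 and Atf6 encode sensors and Xbp1, Atf4, Ddit3 and Cebpb encode basic leucine zipper transcription factors. Ppp1r15a, Trib3 and Tmbim6 are neither: they encode a phosphatase subunit, a pseudokinase and a membrane protein that act on these branches.

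On the brightest probe set of each gene, Ddit3 was higher in the knockout library, Trib3 and Atf4 were lower, and the other 6 genes were close to equal. On the probe set that stood for each gene, the brightest one over both arrays, Ddit3 was 1.57-fold higher, Trib3 1.36-fold lower and Atf4 1.24-fold lower in the knockout. The log2 ratios of knockout over wild type of Ern1, Atf6, Xbp1, Cebpb, Ppp1r15a and Tmbim6 lay between -0.09 and 0.01. Ratios within 0.10 of 0 were thus found for 6 of 9 members, against 28.9% of all 8133 genes measured on both arrays. This count rests on the chosen probe sets and scaling, and the limit of 0.10 was chosen with earlier results of these data known. The 28.9% takes no account of signal. Ern1, 1 of the 6, had signals of 42.8 and 40.2, just above the floor of 39.8. Xbp1 was at -0.36 under 2 other probe set rules, and Ern1 at -0.12 with median centring and -0.14 with loess. Of the other probe sets, 1438992_x_at of Atf4 was at -0.06, and 1456225_x_at of Trib3 was higher in the knockout (39.2 to 46.4). A gene counted as measured where its signal on both arrays was above a floor of 39.8, the 40th percentile of all signals.

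No member reached a 2-fold difference in either direction. At that limit 0.516% of all measured genes were higher and 0.652% were lower in the knockout, so a count of 0 among 9 is near this background. At least 1.5-fold, 1 member was higher and 0 were lower, against 4.19% and 2.95% of all measured genes. The median log2 ratio was -0.04 over the 9 members and 0.03 over all measured genes, and the median size of the log2 ratio without its sign was 0.06 against 0.19. Of the members, 3 had a log2 ratio above 0 and 6 below it, where 45.1% of all measured genes were below 0. Atf6 and Cebpb, both within 0.02 of 0, were below it under 3 of 4 other scalings.

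The error that could be estimated was the disagreement between probe sets of the same gene. Over the 2597 genes with at least 2 measured probe sets, the SD of the log2 ratio per probe set was 0.26. With measured genes in 4 equal classes by mean signal, it was 0.32, 0.30, 0.26 and 0.21 from the dimmest to the brightest class. This SD holds the disagreement of probe sets on the same arrays. Errors shared by a whole array cancel in it, and it leaves out differences between animals, litters and RNA preparations. Counted from 0, the log2 ratio of Ddit3 was 2.21 times the SD of its signal class, and those of Trib3 and Atf4 were 1.49 and 1.48 times the SD of theirs. The class medians were not 0, at 0.07 for the class of Ddit3 and Trib3 and -0.03 for that of Atf4. The other 6 members had log2 ratios smaller than the SD of their class.

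**Figure D1:**
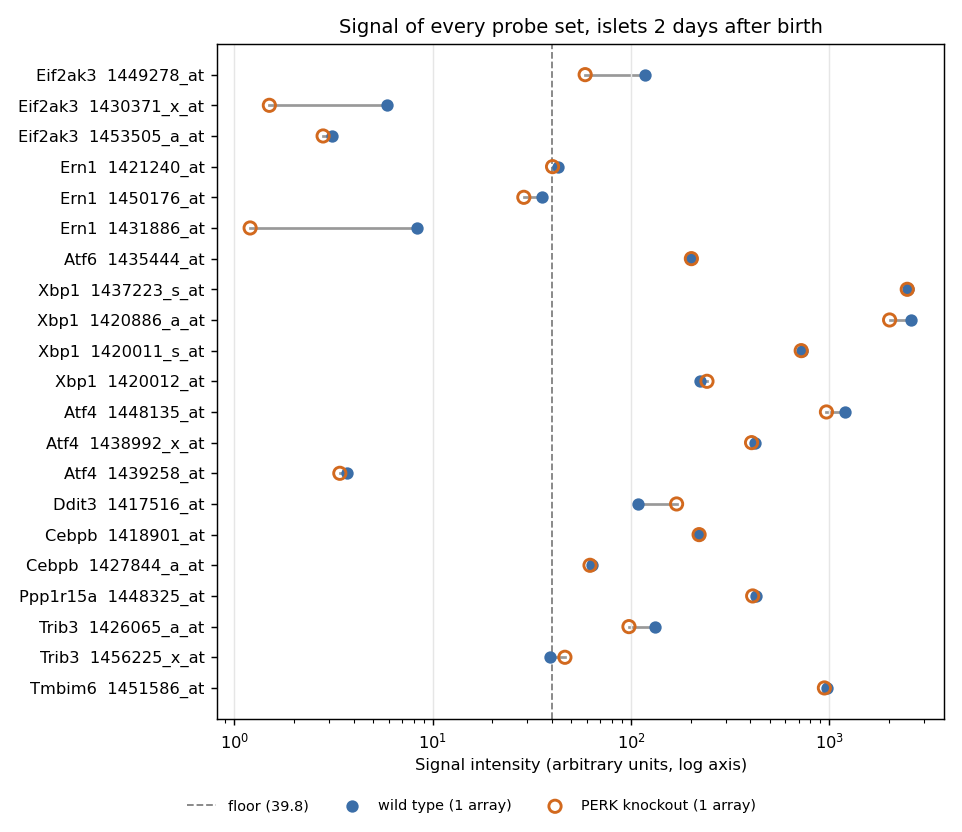
Signal intensity in arbitrary units (log axis) of every probe set of Eif2ak3 and of the 9 unfolded protein response genes; filled points are the wild-type array, open points the knockout array, and the dashed line is the floor of 39.8. Many pairs of points lie on each other, while Ddit3 is farther right in the knockout (108.1 to 169.7) and the brightest probe sets of Eif2ak3 (117.7 to 58.7), Trib3 and Atf4 and 1420886_a_at of Xbp1 (2592 to 2013) are farther left; points left of the floor are not read as levels.

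The targeted gene and markers of the preparations were checked in the same way. Eif2ak3 went from 117.7 in wild-type to 58.7 in knockout islets on its brightest probe set, 2.01-fold lower, and 51 of the 8133 measured genes were at least as low. Its other probe sets were under the floor on both arrays (5.9 and 1.5, 3.1 and 2.8). The knockout array thus still gave a signal above the floor on this probe set, and the sources used here do not say whether it lies in the deleted part. All 9 endocrine markers were measured, with a summed signal of 38933 in wild-type and 38896 in knockout islets. That sum is carried by hormone and granin probe sets close to the array maxima of 8133 and 8242, the brightest being Chga (7033 to 6229) and Iapp (6710 to 6149). The median log2 ratio of the 9 was -0.13, with 4 above 0 and 5 below it, and 1 was at least 1.5-fold lower and 0 higher. The lower one was the glucose transporter Slc2a2, at -0.89 (860.4 to 464.9). The beta cell factors Nkx6-1 and Pdx1, named after their values were seen, were at -0.58 (488.1 to 326.2) and -0.34 (310.2 to 245.5). The 4 above 0 were hormone genes, also named after their values were seen. They were Ppy at 0.23 (6573 to 7733), Ins2 at 0.12 (5652 to 6163), Sst at 0.06 and Gcg at 0.01. Acinar markers, which belong to the enzyme-secreting tissue around the islets, summed to 31444 and 32642 over the 9 with an entry, with 8 measured, 0 of them 1.5-fold apart, and Rbpjl under the floor on both arrays (named after its value was seen). The brightest were Cela3b at -0.03 (7279 to 7119) and Ctrb1 at 0.02 (7076 to 7178), both also close to the array maxima. Of the 8 measured, 5 were above 0 and 3 below it. Named after their values were seen, Cel was at 0.46 (2174 to 2999), Ptf1a at 0.28 (56.5 to 68.6) and Bhlha15 at -0.21 (172.3 to 149.0). Myeloid immune markers summed to 1514 in wild-type islets and 3956 in the knockout over 14 genes. All 11 measured ones were higher in the knockout, 8 of them at least 1.5-fold, with the highest ratio for S100a8 (98.9 to 788.8), followed by log2 ratios of 2.69 for S100a9, 2.27 for Ngp and 1.95 for Lcn2. The integrin Itgam, named after its value was seen, was under the floor on both arrays (17.6 and 16.5). As a check of RNA quality, signals near the 3' end were divided by those near the 5' end: for beta-actin this gave 1.61 in wild-type and 2.01 in knockout islets, for Gapdh 1.01 and 0.867. The part of cell composition and RNA quality in the ratios of the members was not tested, and in a bulk preparation fewer cells of a type and less RNA per cell cannot be told apart.

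The promoters of the 3 genes with log2 ratios beyond 0.10 on their brightest probe sets are shown as reference. Ddit3 and Trib3 are both known targets of ATF4. They differed in opposite directions on those probe sets, while the dimmer probe set of Trib3 was higher in the knockout (39.2 to 46.4), as Ddit3 was. The sequences are RefSeq's for GRCm38.p6, from 250 bases before to 30 bases after the gene's start, 5′ to 3′ on the gene's strand. Ddit3 lies at chr10:127290543-127290822 on the plus strand, Trib3 at chr2:152344031-152344310 on the minus strand and Atf4 at chr15:80254934-80255213 on the plus strand. Capitals mark the motif matches described after them.
Ddit3: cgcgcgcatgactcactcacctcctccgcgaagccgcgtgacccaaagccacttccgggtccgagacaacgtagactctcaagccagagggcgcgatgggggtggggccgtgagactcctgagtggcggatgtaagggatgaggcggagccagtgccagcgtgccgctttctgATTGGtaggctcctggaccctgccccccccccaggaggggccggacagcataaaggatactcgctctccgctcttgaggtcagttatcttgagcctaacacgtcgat
Trib3: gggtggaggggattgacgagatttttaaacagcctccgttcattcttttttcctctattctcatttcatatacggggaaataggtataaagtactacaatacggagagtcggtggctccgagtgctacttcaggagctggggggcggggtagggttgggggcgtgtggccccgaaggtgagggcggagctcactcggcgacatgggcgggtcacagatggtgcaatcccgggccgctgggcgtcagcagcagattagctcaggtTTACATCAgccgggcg
Atf4: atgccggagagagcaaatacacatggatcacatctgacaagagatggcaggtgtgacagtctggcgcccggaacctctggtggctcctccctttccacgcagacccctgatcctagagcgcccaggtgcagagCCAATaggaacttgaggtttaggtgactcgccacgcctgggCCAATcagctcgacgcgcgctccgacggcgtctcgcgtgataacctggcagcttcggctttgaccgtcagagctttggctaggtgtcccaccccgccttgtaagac

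The promoter table held 7 of the 9 members, and Atf6 and Tmbim6 had no entry in it. In windows from 250 bases before to 50 after the start, 5 motifs were searched on both strands. The composite element bound by ATF4 with a C/EBP partner, searched by the core TGATGNAA, matched in Trib3 alone, at bases 15 to 22 after the start on the opposite strand, as TTACATCA in the printed strand. It matched 3.97% of all 32851 promoters. The cyclic AMP response element TGACGTCA matched in Ppp1r15a alone, at bases -12 to -5, and in 1.79% of all promoters. The CCAAT box matched in Ddit3 at bases -77 to -73, on the opposite strand as ATTGG, and in Atf4 at bases -117 to -113 and -76 to -72, and in 37.4% of all promoters. The ER stress element (CCAAT, 9 bases of any kind, then CCACG, a motif that holds the CCAAT box) matched in 0 of the 7 and in 0.119% of all promoters. Only exact matches were counted. In Ddit3 the letters cgtgc stand before the marked ATTGG with 9 bases between them, where an exact match of this element would read cgtgg. The XBP1-binding motif TGACGTGG matched in 0 of the 7 and in 0.676% of all. These matches describe letters in a short window and are not measured binding sites.

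Of the sensors, Atf6 was level and Ern1 was near the limit of what the array could measure. Atf6 went from 199.8 in the wild type to 201.5 in the knockout on its one probe set (1435444_at), a log2 ratio of 0.01. Ern1, which encodes the kinase and endoribonuclease IRE1 alpha, had its highest signals on 1421240_at, 42.8 in wild-type islets and 40.2 in the knockout. Both lie just above the floor of 39.8, so the log2 ratio of -0.09 describes signals at the bottom of the measured range. The other Ern1 probe sets were under the floor on both arrays, at 35.5 and 28.8 for 1450176_at and at 8.3 and 1.2 for 1431886_at, and give no ratio. The sensor transcript that differed most was thus that of the deleted gene itself, with Eif2ak3 2.01-fold lower.

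Xbp1, the transcription factor downstream of IRE1, was covered by 4 probe sets that did not give the same ratio. The brightest by mean signal, 1437223_s_at, went from 2498 to 2471, a log2 ratio of -0.02. The probe set 1420886_a_at, which was brighter than that on the wild-type array, went from 2592 to 2013, a log2 ratio of -0.36. The other two were 1420011_s_at, at 727.1 and 721.3 (log2 -0.01), and 1420012_at, at 223.7 and 241.5 (log2 0.11). So 2 of the 4 were within 0.02 of equality, 1 was lower and 1 was slightly higher in the knockout. The range of 0.48 between them is close to the median range of 0.47 over the 182 genes with 4 measured probe sets, and 48.9% of those genes had a range at least as wide. When _x_at and _s_at probe sets were left out, or when the wild-type array alone chose the probe set, the value for Xbp1 was -0.36. The sources used here do not give the exons each probe set covers, so spliced and unspliced Xbp1 mRNA could not be told apart.

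Atf4, whose protein is made when eIF2 alpha is phosphorylated, was lower in knockout islets where its signal was brightest. The signal of 1448135_at went from 1201 to 966.7, a log2 ratio of -0.31, and 11.4% of all measured genes were at least as low. The second measured probe set, 1438992_x_at, went from 423.3 to 405.3, a log2 ratio of -0.06. Both measured probe sets were lower in the knockout, by sizes that differ by 0.25 on the log2 scale, where the median over the 1818 genes with 2 measured probe sets was 0.22. The third, 1439258_at, was under the floor on both arrays (3.7 and 3.4) and gives no ratio.

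Ddit3 encodes CHOP, a transcription factor known for its part in cell death under lasting ER stress, and had the highest ratio of the 9 genes. Its one probe set, 1417516_at, had a signal of 108.1 in wild-type islets and 169.7 in the knockout, a log2 ratio of 0.65. Of all 8133 measured genes, 244 (3.0%) had a ratio at least as high, as did 4.13% of the genes in the same signal class. Among the 9 genes it was the one at least 1.5-fold apart, and it was higher where Atf4 and Trib3 were lower on their brightest probe sets. With a pseudocount of 16 added in place of the floor the log2 ratio of Ddit3 was 0.58, just under the 1.5-fold limit. No second probe set was there to set beside it, so the value rests on a single one.

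Cebpb encodes C/EBP beta, a basic leucine zipper factor that can pair with CHOP and ATF4, and is also made in myeloid cells. It was level on both of its probe sets. The signal of 1418901_at was 219.5 in wild-type islets and 220.4 in the knockout, and that of 1427844_a_at was 63.6 and 62.1, with log2 ratios of 0.01 and -0.03. The range of 0.04 between them was narrow: 88.9% of the 1818 genes with 2 measured probe sets had one at least as wide. The median of the measured myeloid markers was 0.86, and the part of cell composition in the ratio of Cebpb was not tested.

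The 3 modulators did not differ in one direction by a common amount. Ppp1r15a encodes GADD34, the stress-induced subunit that brings a phosphatase to eIF2 alpha and so reverses the action of PERK. Its signal was 428.5 in wild-type islets and 410.5 in the knockout on 1448325_at, a log2 ratio of -0.06. Tmbim6 encodes BAX inhibitor 1, an ER membrane protein that restrains IRE1, and went from 971.7 to 944.1 on 1451586_at, a log2 ratio of -0.04. Both values are within the error between probe sets.

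Trib3, a pseudokinase induced by ATF4 and CHOP that in turn limits ATF4, had the lowest ratio of the 9 genes. Its brighter probe set, 1426065_a_at, went from 132.3 in the wild type to 97.6 in the knockout, a log2 ratio of -0.44, and 5.88% of all measured genes were at least as low. The dimmer one, 1456225_x_at, had 39.2 in the wild type, under the floor, and 46.4 in the knockout, which gives at least 1.17-fold higher. The probe sets of Trib3 thus pointed in opposite directions, one of them at the edge of the measured range.

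**Figure D2:**
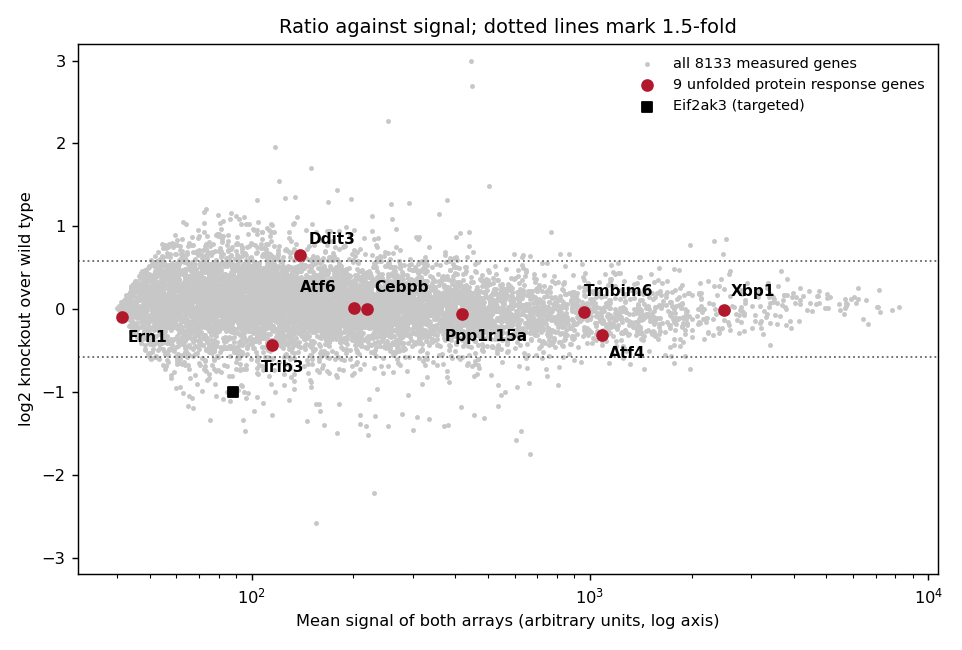
Log2 ratio of knockout over wild type against mean signal (arbitrary units, log axis) for all 8133 measured genes in grey, the 9 unfolded protein response genes in red and Eif2ak3 as a black square; dotted lines mark 1.5-fold in each direction. Ddit3 at 0.65 is the one red point beyond a dotted line, Trib3 (-0.44) and Atf4 (-0.31) lie below the other red points, and the rest lie along 0.

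Across all probe sets of the 9 genes, 14 were measured on both arrays, 1 was above the floor on 1 array and 3 were under it on both. Of the 14, 10 were lower and 4 higher in the knockout, and 1, that of Ddit3, was at least 1.5-fold apart. Several of these probe sets belong to the same gene and are not independent measurements.

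Other genes of the same pathways were taken from 7 lists, with each gene again read on its brightest probe set, and their counts stand against the background of 4.19% higher and 2.95% lower at 1.5-fold. Among genes of the PERK pathway and eIF2 alpha phosphorylation, 1 of 12 measured was at least 1.5-fold lower, Eif2ak3 itself, and 0 were higher, with a median of -0.00. The brightest were Ppp1ca, the catalytic phosphatase subunit, at -0.30 (1440 to 1170), and Eif2b2, a subunit of the exchange factor that eIF2 depends on, at 0.26 (636.8 to 760.9). Ppp1r15b, the constitutive counterpart of Ppp1r15a and named after its value was seen, was at -0.34 (289.7 to 228.8). On its brightest probe set this second subunit that brings the phosphatase to eIF2 alpha was somewhat lower in the knockout library. The SD per probe set in its signal class was 0.26. Ppp1r15a was close to level.

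Among IRE1 pathway partners 0 of 9 measured genes were 1.5-fold apart in either direction, and the median was -0.17. The brightest were the ubiquitin-conjugating enzyme Ube2d3 at -0.17 and Pdia6, a protein disulfide isomerase that acts on IRE1, at -0.30. Rtcb, the ligase that joins Xbp1 mRNA after IRE1 has cut it, was at 0.22 (613.1 to 713.8) and was named after its value was seen. Among genes of ATF6 processing and the related OASIS family of ER-bound factors, 1 of 12 measured was at least 1.5-fold lower and 0 were higher, with a median of -0.09. The lower one was Nfya, a subunit of the CCAAT-binding factor NF-Y that acts with ATF6, which went from 194.7 to 105.8 (log2 -0.88). Its other probe sets were under the floor on both arrays. Nfyb and Nfyc, the other subunits, were at -0.10 and 0.05, Gtf2i at 0.27 and Creb3 at -0.08. Atf6b, the close relative of Atf6, was at -0.39 (130.2 to 99.4), and like Nfyb and Nfyc was named after its value was seen.

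Among C/EBP and ATF family members and their partners, 0 of 11 measured genes were 1.5-fold apart, and the median was 0.07. The brightest were Fos at -0.28 and Jun at 0.10, both also known to respond to tissue handling. Named after their values were seen, Cebpd was at 0.49 (136.6 to 191.2), Atf5 at -0.27 and Atf3, a factor that acts with ATF4, at 0.06 (60.3 to 63.0). Beside the log2 ratio of 0.65 for Ddit3, that of Cebpd was smaller and on the same side of 0, and that of Atf3 was near 0. Atf3 lay in the dimmest signal class, where the SD per probe set was 0.32. Of the Tribbles and TMBIM families, 0 of 5 measured genes were 1.5-fold apart, and the median was -0.04. Tmbim4 was at -0.04 and Ghitm, a mitochondrial member of the TMBIM family, at -0.53 (540.6 to 375.3). Trib1 was above the floor in the wild type alone (62.1 to 24.7), which gives at least 1.56-fold lower, with its other probe set under the floor on both arrays. Trib2 was at 0.26, and like Trib1 was named after its value was seen. The median of these families was 0.01 with quantile and 0.00 with loess normalisation.

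The targets of these factors are given against all measured genes, of which 45.1% were below 0. Of 23 measured ATF4 and CHOP target genes, 2 were at least 1.5-fold higher and 0 lower, with a median of -0.13, 10 above 0 and 13 below it. With quantile or loess normalisation 1 of them was at least 1.5-fold higher. The higher ones were Bcl2l11, which encodes the cell death protein BIM, at 0.73 (157.4 to 261.2), and Vldlr, a lipoprotein receptor, at 0.66 (54.7 to 86.6). A second measured probe set of Bcl2l11 gave 0.02 (83.7 to 85.1), and the other probe sets of Vldlr were under the floor. The brightest were Gars, a tRNA synthetase, at -0.16 and the amino acid transporter subunit Slc3a2 at -0.19. Named after their values were seen, the amino acid and glutathione genes Asns and Chac1 were at -0.26 (509.3 to 425.8) and -0.49 (81.6 to 58.2). Sesn2, also named after its value was seen, was at 0.57 (121.3 to 180.5). Likewise named, Nars was at -0.45, Slc7a5 at 0.09 and Gadd45a at 0.41. Chac1 lay in the dimmest signal class, where the SD per probe set was 0.32.

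Of 28 measured XBP1 and ATF6 target genes, 0 were at least 1.5-fold higher and 3 were lower, with a median of -0.09, 9 above 0 and 19 below it. With quantile or loess normalisation 1 was at least 1.5-fold higher and 2 were lower. The lower ones were the ER co-chaperone Dnajb11 at -1.18 (576.3 to 253.5), Edem1, which sends misfolded glycoproteins to degradation, at -0.61 (176.6 to 115.4), and Ssr1, a subunit of the translocon-associated complex, at -0.59 (864.5 to 576.3). A second probe set of Edem1 gave 0.13, and the others of Ssr1 gave -0.26 and -0.31. The brightest were the chaperone Hspa5 (BiP) at 0.22 (2909 to 3387) and Pdia3 at -0.26 (2827 to 2365). More of these targets were thus below 0 than the share of all measured genes would give, a difference that was not tested. That share takes no account of signal. The median log2 ratio was 0.08 in the dimmest class of measured genes and -0.03 in the brightest, which starts at a mean signal of 326.85. Most of these targets lie in that brightest class. With quantile normalisation 17 of the 28 were below 0, and with loess 18.

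**Figure D3:**
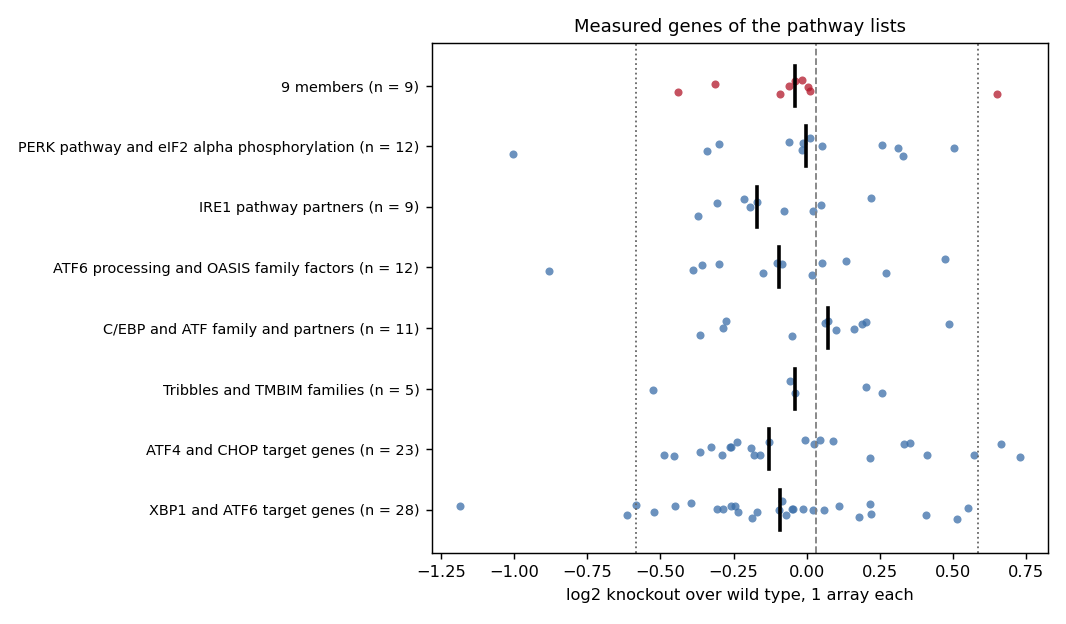
Log2 ratio of knockout over wild type (1 array each) for the measured genes among the 9 members (red) and in the 7 pathway lists (blue); black bars are medians, the dashed line is the median of all measured genes (0.03) and dotted lines mark 1.5-fold. List medians lie between -0.17 and 0.07, with Dnajb11 (-1.18), Eif2ak3 (2.01-fold lower) and Nfya (-0.88) farthest to the left and Bcl2l11 (0.73) and Vldlr (0.66) farthest to the right.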

How the data were processed

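The authors deposited a linear signal intensity for each probe set of both arrays. The submitters' processing notes name GCOS 1.02, Affymetrix's software. How background was corrected and probes were summarised is not stated there. Trimmed by 2% at each end, both arrays had a mean of 149.99, so they had been scaled alike before deposit.

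Here the knockout array was set to the wild type's trimmed mean (factor 1.00), signals under the joint 40th percentile were raised to it, and knockout was divided by wild type on the log2 scale (Python 3.11.15, pandas 2.3.3). Of 22690 probe sets, 20380 had 1 gene symbol in the platform annotation, 691 had several, 1555 were unnamed here and 64 were controls. A gene was read on its brightest probe set. Of 12393 genes, 8133 were measured, 693 were above the floor on 1 array and 3567 on neither. The step was tested on simulated data with lowered ratios, brighter genes and less noise than the SD between probe sets. That test did not cover higher ratios or genes as dim as Ddit3, Trib3 and Ern1.

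Named genes are the 9 members, Eif2ak3, and in each list those measured at least 1.5-fold apart (at most 4 in each direction) with the 2 brightest; others are said to be named after their values were seen. The members, lists and limits were chosen with earlier results of these data known. List genes with no entry under their symbol were not analysed here. Alternatives were 4 scalings, 3 treatments of low signals and 3 probe set rules.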

Additional observations from a re-analysis of the deposited data

How the results depend on the processing

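The ratios, counts and median of the 9 members were computed again under 10 alternatives: loess and quantile normalisation, median centring, the scale as deposited, a pseudocount in place of the floor, floors at the 60th and 25th percentiles, the median over measured probe sets, no _x_at or _s_at probe sets, and the brightest probe set on the wild-type array. No member was 2-fold apart and none was 1.5-fold lower under any of them. The count at least 1.5-fold higher was 1 under 9 of them and 0 with the pseudocount of 16. The log2 ratio ranged from 0.58 to 0.65 for Ddit3, from -0.52 to -0.38 for Trib3 and from -0.34 to -0.19 for Atf4. It ranged from -0.36 to -0.00 for Xbp1, with -0.36 under the last 2 rules. The members' median ranged from -0.07 to -0.02. Atf6, Cebpb and Tmbim6, all near 0, were on the other side of it under 3, 4 and 1 alternatives. Ern1 had no value with quantile normalisation or the 60th percentile floor, being under the floor on at least 1 array. The pathway and marker lists were run under 4 other scalings alone, and the signal of Eif2ak3, the SD between probe sets and the share of members within 0.10 of 0 under none. No scaling moved the median of all genes by over 0.1. No paired analysis was possible because there was 1 array per genotype.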
